A study of Mus musculus with 16 samples.

Results

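The 8 genes described here encode transcription factors used to recognise and pattern endoderm: Foxa1, Foxa2, Foxa3, Sox17, Hhex, Cdx2, Hnf4a and Nkx2-1. They were chosen by name from the 29453 genes of a single-cell RNA-seq count table. The table comes from mouse chimeras made by injecting Stat3 null embryonic stem cells (ESCs) into WT CD1 blastocysts, and it asks how cells without STAT3 differentiate beside WT cells in the same embryo. The null ESCs were derived on the CD1 background from mice in which several Stat3 exons were replaced by a Neomycin resistance gene, and they carry a tdTomato label. As far as the sort on this label separated them, null cells descend from a cultured cell line and WT cells from the host embryo. Dissected whole embryos of 3 stages (E7.5, E8.5, E9.5) were dissociated and sorted into tdTomato-positive (null) and tdTomato-negative (WT) cells, giving 2, 2 and 4 3′ 10x libraries of each genotype in that order. No stage in the series lacks either genotype, and no library carries a further treatment. The letters A to D only name libraries here and pair none of them. In the study each embryo pool gave both a null and a WT library, but which libraries belong together was not known here, so every test was unpaired. The E7.5 and E8.5 libraries were made from pooled embryos. The supplement of the study states that E7.5 embryos were classed as large or small, so the E7.5 libraries of a genotype may differ in embryo size. The methods of the study name fewer E9.5 embryos than there are E9.5 libraries of a genotype, so E9.5 libraries can share an embryo, and the p-values measure the spread between libraries, which may be technical.

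The forkhead factors Foxa1, Foxa2 and Foxa3 open chromatin for other regulators of gut genes, with Foxa2 acting first in the anterior primitive streak, node and definitive endoderm. Sox17 specifies definitive endoderm and is also used by endothelium. Hhex marks anterior endoderm, the liver and thyroid buds and early blood vessels, Nkx2-1 marks the thyroid and lung fields of the foregut and the ventral forebrain, Cdx2 directs posterior identity in the hindgut and tail end and is needed in trophoblast, and Hnf4a drives the absorptive and secretory programme of visceral endoderm and later of liver and gut.

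The table held 41832 cells, of which 3395 called doublets and 596 WT-sorted singlets with a tdTomato unique molecular identifier (UMI) were left out, so that 17387 null and 20454 WT cells under 87 cell type labels were used. The libraries held 360 to 4327 cells and 20682659 to 138613245 UMIs, with a median of 18205 to 57791.5 UMIs per cell. Stat3 itself was counted at 1.16 to 2.53 CPM (UMIs of the gene scaled to a library total of 1000000) in the 8 null libraries and at 6.14 to 9.31 CPM in the 8 WT libraries, with no overlap. Reads from beyond the replaced exons can still be counted by a 3′ method. A tdTomato UMI was found in 89.8 and 72.3% of cells of null libraries A and B at E8.5. In the E7.5 and E9.5 null libraries it was found in 96.1 to 98.3% of cells. Whether null-sorted cells without one came from the host was not tested, which bears most on the E8.5 comparisons. Of the 37351 barcodes used, 488 (1.31%) occurred in 2 or more libraries.

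All values below are UMIs of a gene summed over the cells of a label, or of several labels, in a library and divided by all UMIs of those cells, in CPM. Labels were transferred from a reference by expression, so differences between labels are descriptions without a test. In sums over many cells, fewer cells of a type and less RNA per cell cannot be told apart. In the levels averaged over libraries a label counted in a library only with more than 15 cells, and n gives the libraries that met this. The 6 labels whose cells are called the pooled embryonic endoderm are Gut tube, Foregut, Midgut, Hindgut, Pharyngeal endoderm and Thyroid primordium.

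In the WT host, the genes divided the endoderm by position and by stage. At E7.5 Foxa1 was highest in Gut tube cells, at 40.4 ± 2.16 CPM (SD, n = 2), followed by Visceral endoderm at 27.9 ± 1.02 CPM (n = 2), and 14 of 18 labels held it at under 1 CPM. Foxa2 had the same order, with 103 ± 21.6 CPM in Gut tube and 89.5 ± 19.6 CPM in Visceral endoderm (both n = 2), a gap within the spread between libraries. Foxa3 was ordered otherwise, with 70.6 ± 20.7 CPM in Visceral endoderm against 18.4 ± 2.95 CPM in Gut tube (both n = 2), and these ranges did not overlap.

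At E8.5 all 3 forkhead genes were counted in the gut labels, and Foxa1 and Foxa2 also in the floor plate, where 1 of 78 WT cells had a Foxa3 UMI. Foxa1 stood at 78.8 CPM in Midgut (n = 1), 71.7 ± 8.64 CPM in Foregut (n = 2) and 46.6 CPM in both libraries of Hindbrain floor plate, the ventral midline of the neural tube. Of the labels with enough cells, Foxa2 was highest outside the gut, at 178 ± 21.3 CPM in Hindbrain floor plate (n = 2) against 42.4 to 59.8 CPM in Hindgut, Foregut, Midgut and Gut tube. Node, with only 6 WT cells, had a Foxa2 UMI in all 6, against 69 of 78 floor plate cells. Among labels with more than 15 cells, Foxa3 was highest at 22.6 CPM in Hindgut (n = 1) and 14.3 ± 2.46 CPM in Foregut (n = 2). Midgut held 46.0 CPM in WT library A, from 14 cells, and 14.3 CPM in WT library B. Visceral endoderm, with 2 and 12 cells in WT libraries A and B, gave 7 Foxa3 UMIs in each. At E9.5 Foxa2 remained highest in Hindbrain floor plate, at 174 ± 18.1 CPM (n = 4). Among labels with more than 15 cells, Foxa3 was highest in Foregut at 49.6 CPM (n = 1) and under 1 CPM in 49 of 54 labels. The other 3 libraries held 2.68 to 22.7 CPM, from 8 to 10 Foregut cells each. Midgut, left out by its cell number, held 23.9, 24.4, 37.5 and 55.3 CPM in WT libraries A to D. These values rest on 5 to 9 cells and 4 to 8 Foxa3 UMIs each, and stood above Foregut in every library.

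Sox17 was counted in both endoderm and endothelium. At E7.5 it was 216 ± 8.71 CPM in Gut tube and 197 ± 51.7 CPM in Visceral endoderm (both n = 2), a gap within the spread, and 54.7 CPM in Allantois endothelium (n = 1). At E8.5 Venous endothelium led with 94.6 ± 10.8 CPM (n = 2), Hindgut held 79.2 CPM and Midgut 66.3 CPM (both n = 1), and Foregut held 9.39 ± 0.916 CPM (n = 2). In WT library A, Hindgut held 112 CPM from 8 cells. Its Midgut held 6.13 CPM from 14 cells, below its Foregut at 8.74 CPM. Gut tube held 84.6 and 59.8 CPM in WT libraries A and B, from 4 and 31 cells. Hindgut thus stood above Foregut in both libraries, and Midgut in library B only. At E9.5 it was 180 CPM in Parietal endoderm (n = 1), 94.7 ± 14.5 CPM in Venous endothelium (n = 3) and 17.6 CPM in Hindgut (n = 1).

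Hhex was shared between Foregut and endothelium at E8.5. Allantois endothelium (180 CPM, n = 1), Foregut (180 ± 42.9 CPM, n = 2) and Embryo proper endothelium (172 ± 8.97 CPM, n = 2) lay within each other's spread, and Thyroid primordium followed at 63.0 ± 1.55 CPM (n = 2). At E9.5 Foregut held 126 CPM in WT library D, the only one with more than 15 Foregut cells, and 92.2, 71.0 and 13.4 CPM in libraries A to C from 8 to 10 cells each, so its place beside Venous endothelium, at 83.5 ± 27.0 CPM (n = 3), is not settled. Nkx2-1 was highest in Ventral forebrain progenitors, at 108 CPM at E8.5 (n = 1) and 169 ± 50.5 CPM at E9.5 (n = 4). Within endoderm it was counted only in Thyroid primordium among the labels of WT E8.5 cells, at 21.2 ± 13.2 CPM (n = 2). At E9.5 it was counted in Foregut as well, at 58.4 CPM (n = 1, with 31.3 to 191 CPM in the other 3 libraries). E9.5 Midgut held 51.8 and 122 CPM in WT libraries A and B, from 9 and 5 cells, and 0 in libraries C and D. Gut tube held 14.4 CPM in WT library D, from 15 cells, and 0 in libraries A to C. No label reached 1 CPM of Nkx2-1 at E7.5.

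Cdx2 followed the posterior end of the embryo across germ layers. It was 286 ± 74.7 CPM in Caudal epiblast and 213 ± 118 CPM in Lateral plate mesoderm at E7.5 (both n = 2), a gap within the spread, and 110 ± 8.28 CPM in ExE ectoderm, the trophoblast label (n = 2). At E8.5 neuromesodermal progenitors (NMPs) held 276 ± 10.8 CPM (n = 2), the mesoderm-biased NMPs 396 CPM (n = 1) and Hindgut 223 CPM (n = 1), while Foregut held 8.13 ± 0.858 CPM (n = 2). At E9.5 Hindgut (182 CPM, n = 1), NMPs (165 CPM, n = 1) and Limb ectoderm (153 ± 25.8 CPM, n = 2) led. Hnf4a was counted in few labels. At E7.5 it was highest in ExE endoderm (n = 1, 78 UMIs in 32 cells), with 28.2 ± 19.8 CPM in Visceral endoderm (n = 2) and 15 of 18 labels under 1 CPM. At E9.5, of 54 labels with more than 15 cells, only Foregut and Parietal endoderm exceeded 1 CPM. Foregut held 21.2 CPM (n = 1, with 2.68 to 34.1 CPM in the other 3 libraries). Parietal endoderm held 2.37 CPM (n = 1). Labels with fewer cells held it too. ExE endoderm had 41.2, 25.7 and 54.1 CPM in WT libraries A, B and D, from 2 to 4 cells each. Midgut had 0, 12.2, 10.7 and 20.7 CPM in WT libraries A to D, from 5 to 9 cells each. Extra-embryonic endoderm labels together gave 37.7% of the 61 WT Hnf4a UMIs at E9.5.

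**Figure D1:**
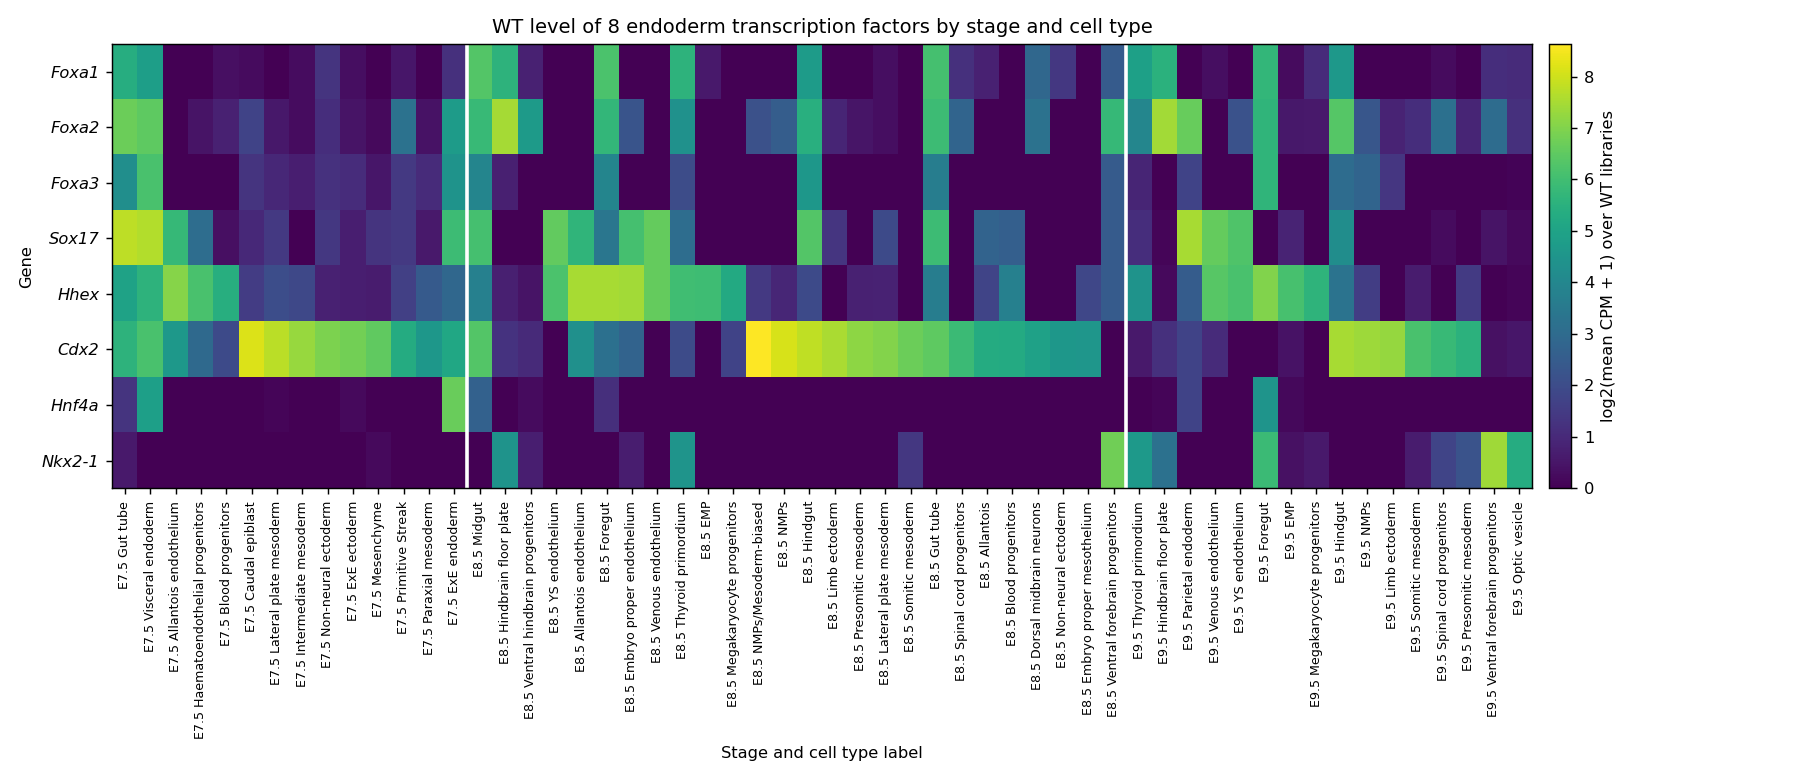
Level of each gene (rows) in WT cells of each stage and cell type label (columns, white lines between stages), as log2(mean CPM + 1) over the WT libraries with more than 15 cells of the label. The columns are those in which at least 1 of the genes had a mean of 20 CPM or more. Cdx2 fills the caudal columns, Hnf4a is bright only in ExE endoderm, Visceral endoderm and E9.5 Foregut, and Nkx2-1 is brightest in Ventral forebrain progenitors, at 169 CPM at E9.5.

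The likeness of each gene's pattern to all others was described by Pearson's r of log2(mean WT CPM + 1) over 93 pairs of stage and label with at least 50 WT cells, which share libraries, stages and neighbouring labels. This cut left out E7.5 ExE endoderm and, at E8.5 and E9.5, Foregut, Midgut, Hindgut and Gut tube. The r values below therefore do not cover those labels. Among the pairs kept, Foxa1 reached at most 46.6 CPM and Hnf4a 28.2 CPM. That Hnf4a value is from E7.5 Visceral endoderm, on which its r values largely rest. Among 9947 candidates, Foxa2 was the gene most like Foxa1 (r = 0.84), followed by Shh (0.77), the hedgehog ligand of midline and gut, and Vtn (0.63). Foxa3 was most like Pga5 (0.88), and Hnf4a was most like Pga5 (0.96) and Apoc3 (0.96), an apolipoprotein gene. Sox17 and Hhex had r = 0.74 with each other, and the nearest genes to Hhex were Gimap1 (0.80), Grap (0.78) and Rasip1 (0.76), the last a regulator of vessel lumens. Cdx2 was nearest to Evx1 (0.85), its antisense neighbour Evx1os (0.85) and T (0.77), genes of the tail end and primitive streak. Nkx2-1 was nearest to its relative Nkx2-4 (0.79), Shh (0.72) and Nkx2-2 (0.66).

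The promoters are shown for the pair of genes whose windows hold a forkhead core motif, since Foxa1 and Foxa2 share a pattern and Cdx2 is the gene of the set whose null and WT values in E9.5 pooled endoderm are described most closely here. The RefSeq table (GRCm38.p6) held 10 promoters of 300 bases, from 250 before to 50 after the start, for 7 of the 8 genes. Both genes are on the minus strand, at chr5:147307200-147307499 for Cdx2 and chr12:57546062-57546361 for Foxa1, and the sequences read 5′ to 3′ along the gene, with capitals marking the match to the FOXA core TGTTTAC, which is read on the opposite strand of each.
Cdx2 promoter: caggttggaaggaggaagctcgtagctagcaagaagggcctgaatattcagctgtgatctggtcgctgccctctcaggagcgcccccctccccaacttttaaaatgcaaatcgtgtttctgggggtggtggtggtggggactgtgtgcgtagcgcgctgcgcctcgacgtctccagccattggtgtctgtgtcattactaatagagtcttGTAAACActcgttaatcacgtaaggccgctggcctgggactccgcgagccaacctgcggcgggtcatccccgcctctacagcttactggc
Foxa1 promoter: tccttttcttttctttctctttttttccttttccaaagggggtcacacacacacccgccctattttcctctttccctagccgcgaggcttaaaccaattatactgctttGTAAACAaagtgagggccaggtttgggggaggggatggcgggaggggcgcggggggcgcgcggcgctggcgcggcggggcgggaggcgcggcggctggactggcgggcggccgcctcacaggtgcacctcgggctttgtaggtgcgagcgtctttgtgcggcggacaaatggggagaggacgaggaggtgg
The core begins 40 bases before the RefSeq start of Cdx2 and 141 before that of Foxa1. The Foxa1 window lies wholly inside the GENCODE gene (57540628 to 57546916, minus strand). Its match is thus within that annotated gene and not upstream of it. Of all 32851 promoters of this length, 3.65% held it on either strand. The CDX core TTTATNG, present in 10.9% of all promoters, lay 37 bases before the Foxa3 start, where it overlaps a TATA box (TATAAA, 13.6% of all promoters). The SOX core ACAATG, present in 12.6%, was not among the letters of any of the 10 windows. These are matches of letters and nothing was measured on binding.

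In GENCODE annotation on GRCm38, Foxa1 lies on chromosome 12 (57540628 to 57546916, minus strand) and Nkx2-1 on the same chromosome (56531958 to 56536908, minus). Foxa2 (148042877 to 148046969, minus) and Hnf4a (163506808 to 163572910, plus) lie on chromosome 2. Foxa3 is on chromosome 7 (19013284 to 19023538, minus), Sox17 on chromosome 1 (4490931 to 4497354, minus), Hhex on chromosome 19 (37434810 to 37440731, plus) and Cdx2 on chromosome 5 (147300805 to 147307270, minus).

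The labels were checked against markers. Foregut cells held all 6 embryonic endoderm markers (Epcam, Cldn6, Krt8, Krt18, Spink1 and Shh) at over 10 CPM at E8.5 and E9.5. Pharyngeal endoderm was on average 43.4% of pooled WT and 52.8% of pooled null cells at E9.5. Its WT cells held 4 of the 6 (Epcam, Cldn6, Krt8 and Krt18) at both stages. Its null cells at E9.5 also held Shh, at 12.8 CPM. WT Surface ectoderm held the same 4 at over 10 CPM at both stages, so they do not tell the 2 labels apart. Pax1, Pax8, Pax9, Sox2 and Nkx2-3 were higher in WT Pharyngeal endoderm than in WT Surface ectoderm at both stages. Foxa1 in Pharyngeal endoderm was 5.94 ± 0.536 CPM at E8.5 (n = 2) and 8.68 ± 3.92 CPM at E9.5 (n = 3). Of WT cells called Thyroid primordium, 4 of 40 at E8.5 and 6 of 75 at E9.5 had an Nkx2-1 UMI, so the defining factor of that label was not counted in most of its cells.

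Whether these factors change with age in the host was tested in WT pooled embryonic endoderm, E9.5 (4 libraries) against E8.5 (2 libraries), with edgeR's quasi-likelihood test and Benjamini-Hochberg adjustment over 10948 genes, of which 9.22% were called at an adjusted p below 0.05. Hhex fell and was the only one of the 8 genes called. It stood at 38.3 and 27.3 CPM at E8.5 and at 25.7, 17.8, 17.4 and 24.8 CPM at E9.5. Every E9.5 library was below both E8.5 libraries. The log2 fold change was -0.72 ± 0.18 (SE, edgeR adjusted p = 0.0234), and the adjusted p was 0.0565 with DESeq2 and 0.0428 with limma-voom. It was 0.263 without WT library A of E8.5, 0.0507 without WT library B of E8.5 and 0.0534 without WT library B of E9.5.

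Nkx2-1 had the widest gap, from 2.75 and 0.895 CPM at E8.5 to 15.1, 19.1, 43.2 and 13.4 CPM at E9.5. The stages did not overlap, but the fold change of 3.40 ± 0.81 did not pass (edgeR adjusted p = 0.0651), while DESeq2 (adjusted p = 0.000503) and limma-voom (adjusted p = 0.0303) called it. Sox17, at 15.1 and 25.3 CPM at E8.5 and at 7.97, 0.415, 1.80 and 8.33 CPM at E9.5, was likewise apart without passing (-2.06 ± 0.68, edgeR adjusted p = 0.155), and limma-voom (adjusted p = 0.0278) but not DESeq2 (adjusted p = 0.300) called it. For Foxa1, Foxa2, Foxa3, Cdx2 and Hnf4a the log2 fold changes were -0.24, 0.04, -0.26, -0.39 and 1.95, with edgeR adjusted p-values of 0.220 to 0.925, and neither other tool called them. Markers of other cell types moved with stage in this pool. Of the 6 embryonic endoderm markers 3 fell (median -0.53) and of 10 epithelial genes 3 fell (median -0.37), while 2 of 4 tested axial mesoderm markers (median 1.43) and 2 of 4 neural markers (median 0.97) rose, against a median of 0.02 over all genes. Summed, the embryonic endoderm markers were 2166 to 3059 CPM at E8.5 and 1774 to 1989 CPM at E9.5, and the neural markers 101 to 119 CPM and 190.0 to 212 CPM. Thyroid primordium was on average 10.7% of pooled WT cells at E8.5 and 17.4% at E9.5, Midgut 12.1 and 7.49%, and Pharyngeal endoderm 49.8 and 43.4%. The part of these shifts in the values of Hhex, Nkx2-1 or Sox17 was not tested. Among other regulators on lists of related genes, 3 of 5 tested early endoderm regulators fell: Gata4 (-1.96, edgeR adjusted p = 0.0121), Gata6 (-1.03, 0.000909) and Otx2 (-1.47, 0.00111). In the foregut list Sox2 (0.72, 0.00111), Pax1 (1.79, 0.00569) and Isl1 (0.73, 0.00189) rose and Nkx2-5 (-1.13, 0.00764), a heart and pharyngeal factor, fell. Cebpa, a regulator of hepatocytes, rose by 2.13 (0.0273).

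How null endoderm compared with WT endoderm was then asked stage by stage in the pooled embryonic endoderm. At E7.5 null library B held only 9 such cells, so no test was made. Foxa2 was 115 and 88.1 CPM in WT and 86.4 and 86.7 CPM in null libraries, Sox17 was 206 and 210 CPM against 165 and 378 CPM, and Cdx2 was 75.5 and 11.1 CPM against 40.0 and 7.71 CPM. Of these, the genotypes stood apart only for Foxa2, and there by a small margin.

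At E8.5 (130 and 262 WT cells, 275 and 97 null cells) none of the 7 genes tested was called by edgeR, where 0.0756% of 10581 genes were. At an unadjusted p under 0.05 there were 3 (Foxa1, Foxa2 and Nkx2-1), and 15 of 56 tested genes on the lists of related genes. The share of all genes at this cut, or called by DESeq2 or limma-voom, is not given here or below. Such counts therefore have no background to be read against. DESeq2 called 1 of the 7 genes and limma-voom 0. The called gene was Nkx2-1, at 2.75 and 0.895 CPM in WT and 18.5 and 6.98 CPM in null libraries. The libraries did not overlap, and the log2 fold change of 2.96 ± 0.59 had an adjusted p of 0.235 with edgeR and 0.0344 with DESeq2. On leaving out a library it ran from 1.99 (without null library A) to 3.87 (without WT library A). Foxa2 was 24.8 and 26.2 CPM in WT and 35.9 and 47.6 CPM in null libraries, again apart (0.67 ± 0.19, edgeR adjusted p = 0.488). Hhex was 38.3 and 27.3 CPM in WT and 101 and 46.3 CPM in null libraries, where null library A stood well above the other 3 (1.22 ± 0.43, edgeR adjusted p = 0.940). Without null library A, Foxa2 and Sox17 passed, and without null library B, Hhex and Nkx2-1 passed, but each of these fits holds a single null library, which is assumed to vary like the WT libraries. The fold change of Sox17 was 1.46 without null library A and -1.26 without null library B.

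The pool itself differed between these libraries. Thyroid primordium made up 12.3 and 9.16% of pooled cells in WT and 26.9 and 18.6% in null libraries, and summed visceral endoderm markers (Ttr, Apoa1, Afp, Amn, Cubn and Apoa4) stood at 382 and 408 CPM in WT and 596 to 777 CPM in null libraries. Summed axial mesoderm markers were 43.0 and 45.7 CPM in WT and 56.9 and 89.9 CPM in null libraries, and heart markers 42.7 and 47.7 CPM against 71.4 and 99.5 CPM. Somite markers were 19.8 and 24.6 CPM in WT and 3.93 and 13.3 CPM in null libraries, and mesenchyme markers 22.3 and 22.6 CPM against 12.7 and 19.0 CPM. None of these 4 lists overlapped between the genotypes, nor did the visceral endoderm sums. Endothelium markers (3.58 to 5.59 CPM in WT, 1.75 to 3.29 CPM in null libraries) also stood apart. So did trophoblast markers other than Cdx2 (2.75 to 2.91 CPM against 3.13 to 3.49 CPM). Neural, blood and embryonic endoderm sums overlapped. With 2 libraries of each genotype such gaps arise easily from a random order of libraries. The part of these shifts in the values of Nkx2-1, Hhex or Foxa2 was not tested. Cdx2 showed no gap at this stage, at 31.4 and 41.6 CPM in WT and 35.6 and 36.7 CPM in null libraries (-0.04 ± 0.18, edgeR adjusted p = 0.994). Of the lists of related genes, 1 of 12 foregut and pharyngeal regulators passed, Nkx2-3, which rose from 75.0 CPM in WT to 150.2 CPM in null endoderm (0.99 ± 0.13, edgeR adjusted p = 0.0168), and 1 of 7 tested visceral endoderm transport genes, Apoa1, an apolipoprotein gene, which rose by 1.63 ± 0.22 (0.0168). All 7 of those transport genes had positive fold changes, with a median of 0.71 against 0.01 over all genes. No midgut and hindgut regulator of 8 tested passed, and the Hox genes Hoxa9, Hoxb9 and Hoxc9 stood at -0.87, -0.66 and -1.13 (edgeR adjusted p of 0.713, 0.988 and 0.372).

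At E9.5 Cdx2 was lower in null endoderm. It stood at 25.7, 25.3, 35.4 and 38.1 CPM in WT libraries A to D and at 15.3, 13.3, 17.6 and 20.4 CPM in null libraries A to D. The highest null library was below the lowest WT library. The log2 fold change was -0.92 ± 0.17 (edgeR adjusted p = 0.0216 over 10459 genes, of which 0.21% were called), and Cdx2 was the only 1 of 6 genes tested to pass. The adjusted p was 0.00876 with DESeq2 and 0.0583 with limma-voom. It rose past 0.05 on leaving out WT library C (0.0731) or D (0.167), or null library A (0.128), B (0.0816) or C (0.0703), while the fold change stayed between -1.03 and -0.77.

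The labels of the pool were examined for where the Cdx2 difference lay, as a description added after its value was known. Hindgut gave 49.6% and Midgut 29.4% of the Cdx2 UMIs of pooled WT cells at E9.5, against 35.1 and 53.9% of those of null cells. Within Hindgut the WT libraries held 125, 238, 36.0 and 182 CPM and the null libraries 60.5, 92.0, 61.4 and 88.1 CPM, from 3 to 23 cells each. All WT values but that of library C exceeded all null values. Within Midgut the genotypes were mixed, at 95.7 to 208 CPM in WT and 85.2 to 215 CPM in null libraries, and within Gut tube the WT libraries held 58.2 to 86.6 CPM from 3 to 15 cells. Null library A held 28.0 CPM from 13 Gut tube cells, while null libraries B and D had no Cdx2 UMI in 1 and 2 such cells and library C had no such cell, too few to set against WT. The Gut tube cells of null library A also held Nkx2-1 at 93.3 CPM, against 0 to 14.4 CPM in WT libraries. A Hhex UMI was found in 53.8% of them, against 0 to 33.3% in WT libraries.

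Both the Cdx2 level within Midgut, Hindgut and Gut tube and the share of these labels in the pool were lower in null libraries on average. Neither passed a test alone. Over Midgut, Hindgut and Gut tube cells together Cdx2 was 97.7 ± 27.7 CPM in null and 129 ± 40.3 CPM in WT libraries (SD, n = 4 each, exact two-sided permutation test p = 0.171). Those cells made up 17.7% of pooled null and 26.3% of pooled WT cells (exact permutation p = 0.229), and Gut tube cells alone 2.52 and 9.48% (exact permutation p = 0.0571), where 0.0286 is the smallest p that 4 against 4 libraries allow. Midgut cells alone were 7.75% of pooled null and 7.49% of pooled WT cells, and Hindgut cells 7.40 and 9.37%. Without the Hindgut cells the fold change was -0.76 (edgeR adjusted p = 0.609). The share of pooled cells with a Cdx2 UMI was 10.2 ± 3.42% in null and 17.9 ± 5.38% in WT libraries (exact permutation p = 0.0571). After thinning every cell to 10000 UMIs it was 7.5 and 13.6% (exact permutation p = 0.0571). With Benjamini-Hochberg adjustment over the 8 genes these exact permutation p-values were 0.343 and 0.457. For the pooled Cdx2 level the exact permutation p was 0.0286, and 0.229 after that adjustment. Among Erythroid cells, which should lack the gene, 1.88% of WT and 1.84% of null cells had a Cdx2 UMI, at medians of 29651 and 40723 UMIs per cell, against 23975 and 28032 UMIs in pooled endoderm.

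Other cell types' markers moved with genotype in the same pool at E9.5. The 4 blood markers summed to 89.2 to 545 CPM in WT and 3.84 to 28.3 CPM in null libraries, without overlap, and the 3 trophoblast markers other than Cdx2 to 2.19 to 4.73 CPM in WT and 5.91 to 10.4 CPM in null libraries. The 6 embryonic endoderm markers summed to 1774 to 1989 CPM in WT and 1712 to 1937 CPM in null libraries, and those ranges overlapped. The 6 axial mesoderm markers summed to 72.6 to 144 CPM in WT and 51.1 to 97.7 CPM in null libraries, with Noto at 0 in every null library. Their part in the Cdx2 difference was not tested.

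**Figure D2:**
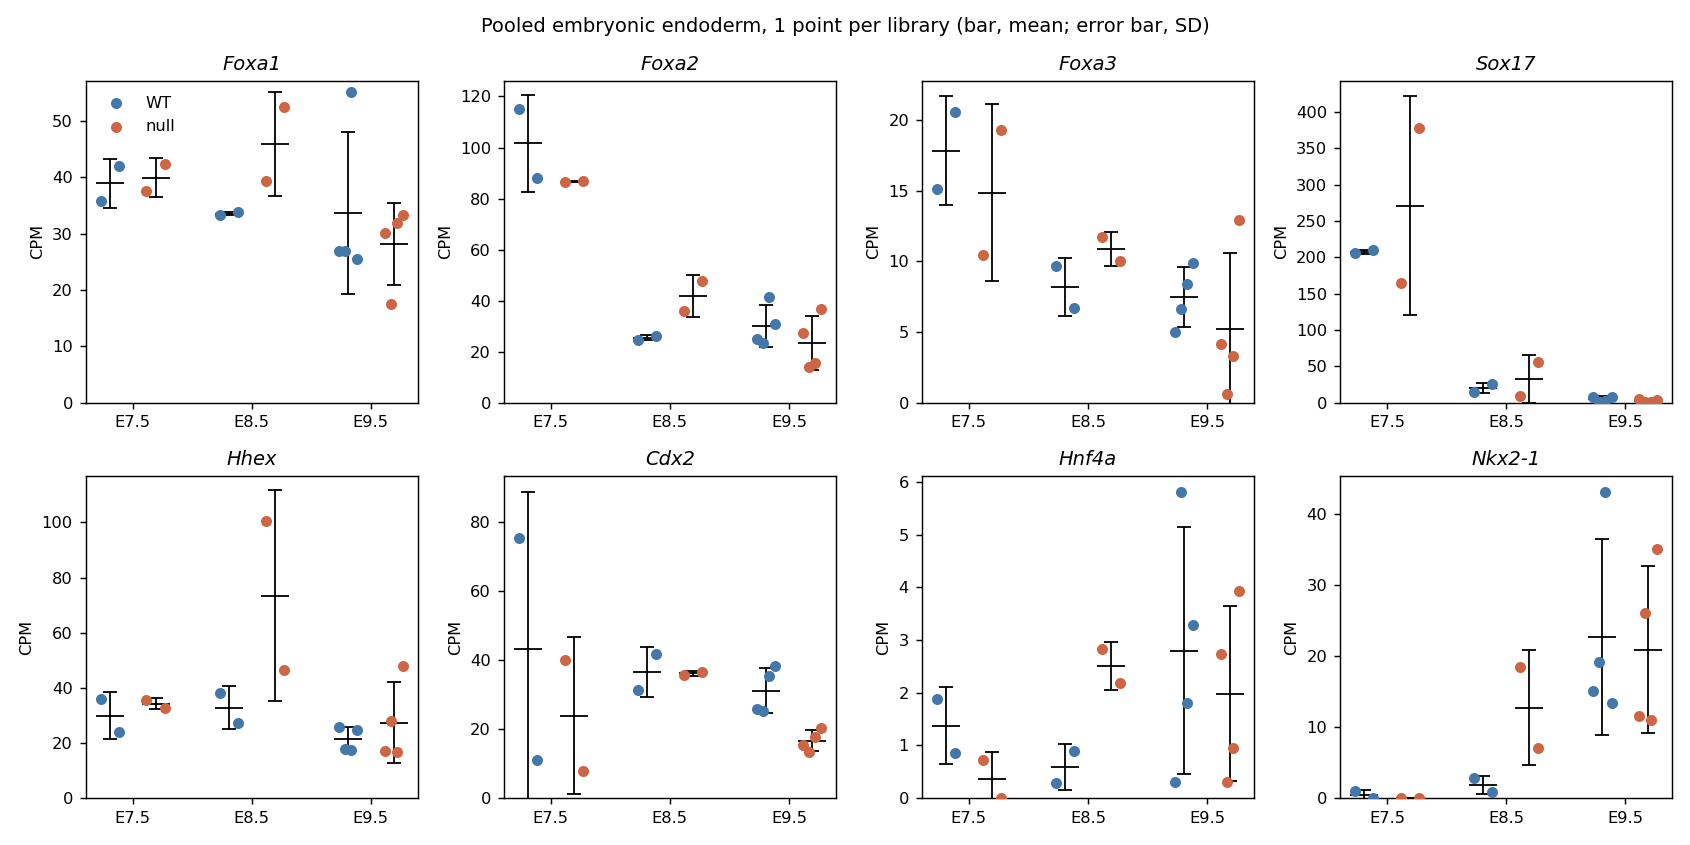
Level of each gene in pooled embryonic endoderm (y axis, CPM from 0) by stage, with 1 point per library, bars for the mean and error bars for the SD, WT and null side by side. The E9.5 Cdx2 points of null libraries, 13.3 to 20.4 CPM, all sit below those of WT libraries, 25.3 to 38.1 CPM.

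**Figure D3:**
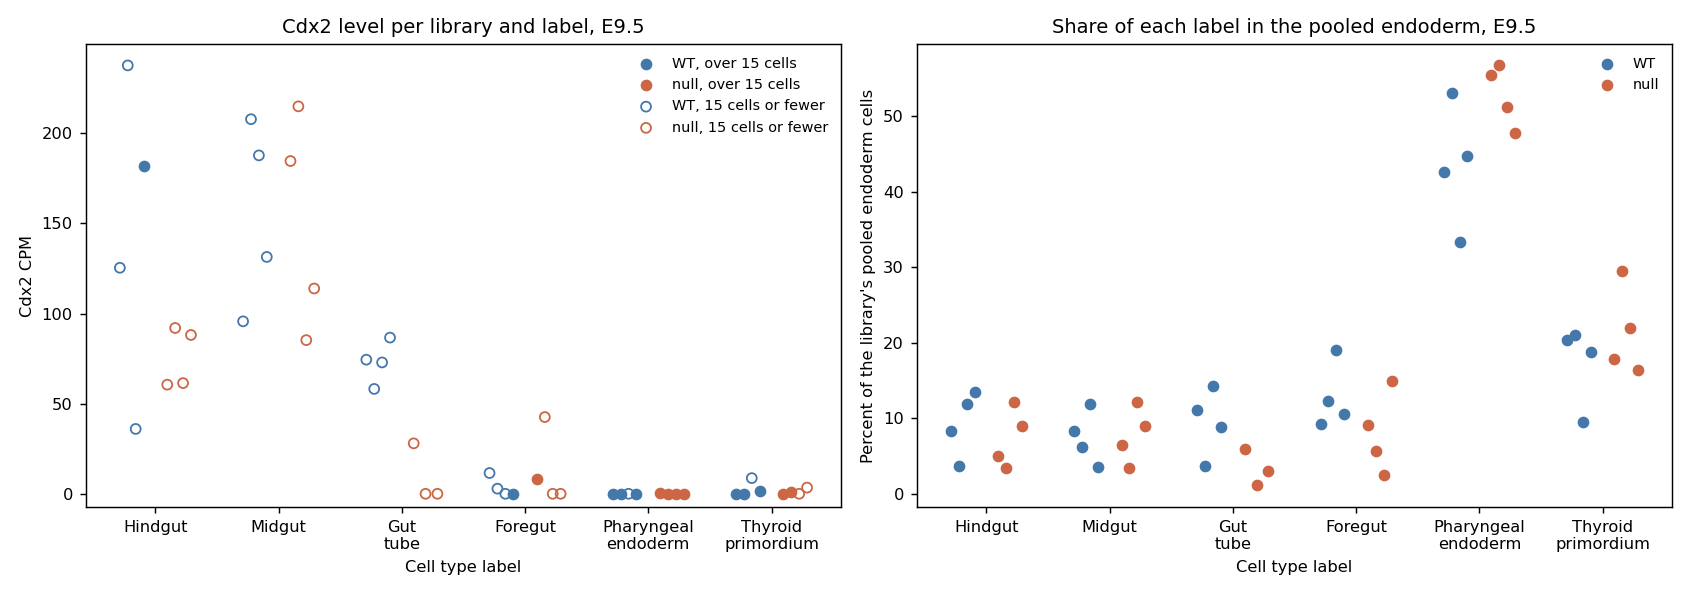
Cdx2 at E9.5 by endoderm label: left, CPM per library, with open points for 15 cells or fewer; right, the percent of a library's pooled endoderm cells under each label. Hindgut and Midgut points lie highest on the left, and on the right the Gut tube average is 2.52% in null against 9.48% in WT libraries, where 1 null library without such a cell counts as 0 and has no point.

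The other genes were mixed between genotypes at E9.5. Foxa1 was 26.9, 27.0, 55.1 and 25.4 CPM in WT and 30.1, 17.4, 31.8 and 33.3 CPM in null libraries (-0.17 ± 0.30, edgeR adjusted p = 0.987). Foxa2 was 24.8, 23.2, 41.4 and 30.9 CPM in WT and 27.3, 13.9, 15.7 and 36.9 CPM in null libraries (-0.29 ± 0.33, edgeR adjusted p = 0.970). For both genes the libraries of the genotypes overlapped. Foxa3 ranged from 5.02 to 9.86 CPM in WT and from 0.591 to 12.9 CPM in null libraries (-0.56 ± 0.66), Hhex from 17.4 to 25.7 and from 16.6 to 48.0 CPM (0.28 ± 0.38), and Nkx2-1 from 13.4 to 43.2 and from 10.9 to 35.1 CPM (-0.01 ± 0.56). Their edgeR adjusted p-values were 0.970 to 1.00. The fold change of Foxa3 was -1.36 without null library D and -0.19 without null library B. Sox17, at 0.415 to 8.33 CPM in WT and 1.18 to 5.19 CPM in null libraries, and Hnf4a, at 0.295 to 5.81 and 0.296 to 3.94 CPM, were too low to be tested. None of the 59 genes tested on 7 lists of other endoderm regulators, gut signals, epithelial genes and visceral endoderm transport genes passed with edgeR, and 3 had an unadjusted p under 0.05. Epcam, the epithelial adhesion gene, stood at -0.03 and Shh at -0.29 (edgeR adjusted p of 0.990 and 0.975).

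Whether the genotype effect differed between E8.5 and E9.5 was tested by an interaction term. None of the 8 genes passed in edgeR, where 1 of 11277 genes did, and 2 had an unadjusted p under 0.05. Cdx2 differed by -0.88 ± 0.27 and Nkx2-1 by -2.99 ± 1.23 on the log2 scale (both edgeR adjusted p = 1.00), so the genotype effect on Cdx2 at E9.5 was not shown to differ from that at E8.5.

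**Figure D4:**
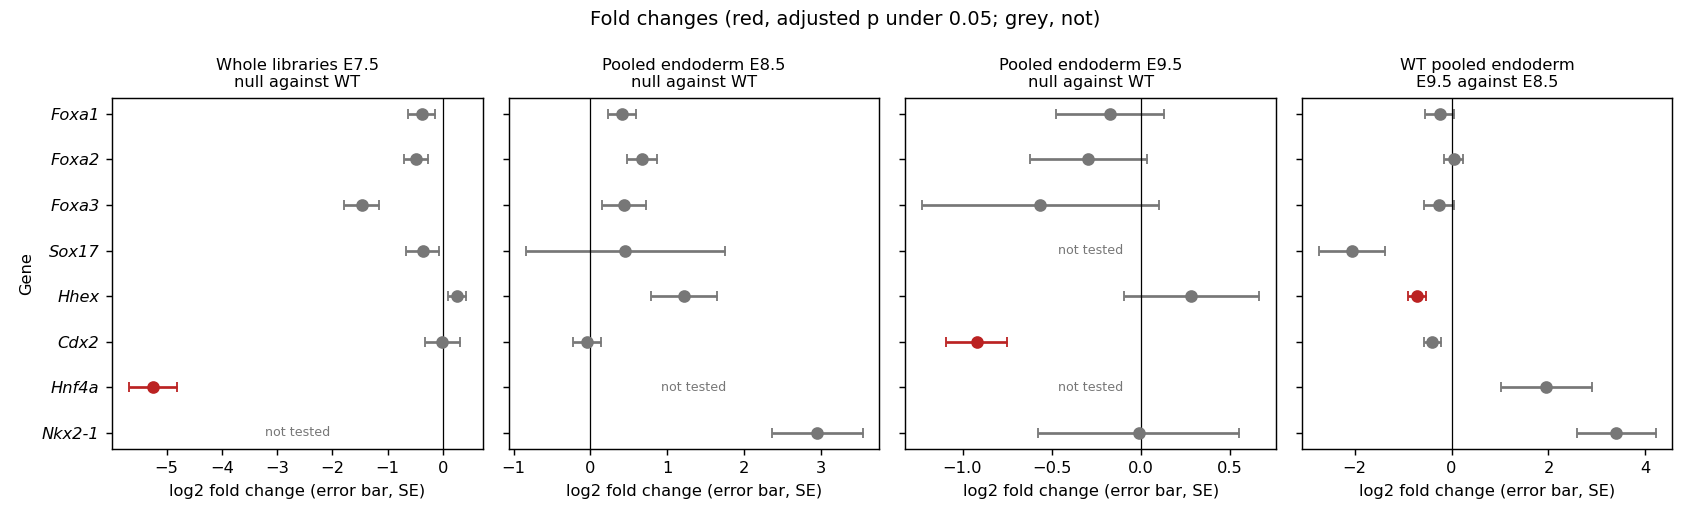
Log2 fold changes (x axis, error bar SE) of the genes in 4 comparisons with edgeR, red where the adjusted p was below 0.05. The axes differ in range between panels. The called points are Hnf4a at -5.24 in whole E7.5 libraries, Cdx2 at -0.92 in E9.5 endoderm and Hhex at -0.72 between stages of WT endoderm.

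Over whole libraries, in which every sorted cell counts, Hnf4a was far lower in the E7.5 null fraction. It was 2.32 and 2.86 CPM in WT libraries (63 and 155 UMIs) and 0.0553 and 0.0967 CPM in null libraries (5 and 2 UMIs). Null and WT libraries were far apart. The log2 fold change was -5.24 ± 0.44 (edgeR adjusted p = 0.00204 over 13721 genes, of which 2.92% were called), and of the 7 genes tested only Hnf4a passed. Foxa3 was 4.20 and 3.87 CPM in WT and 1.08 and 1.89 CPM in null libraries (-1.47 ± 0.32, edgeR adjusted p = 0.0698), and DESeq2 (adjusted p = 0.0156) and limma-voom (adjusted p = 0.0299) called it.

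Visceral endoderm and ExE endoderm cells gave 96.3% of the WT Hnf4a UMIs at E7.5. The WT libraries held 31 and 71 Visceral endoderm and 10 and 32 ExE endoderm cells, against 2 and 0 and no ExE endoderm cell in the null libraries. Without the cells of extra-embryonic labels, Hnf4a was 0.0952 and 0.0867 CPM in WT and 0.0554 and 0.0967 CPM in null libraries, overlapping and too low to be tested, and Foxa3 had a fold change of -0.33 (edgeR adjusted p = 1.00). Leaving out these labels takes away nearly all WT Hnf4a UMIs by construction, and the part of the cell numbers in the difference was not tested. The paper states that the anterior visceral endoderm of conventional chimeras comes from the host. It describes the extra-embryonic tissue available to the null cells as WT. An effect of genotype on these labels therefore cannot be told apart from the way the chimeras were made. All 13 tested visceral endoderm transport genes fell with Hnf4a over whole E7.5 libraries, with a median of -7.25 against 0.02 over all genes. Ttr, which carries thyroid hormone and retinol, was 193 and 214 CPM in WT and 1.21 and 0.483 CPM in null libraries, and Apoa1 was 112 and 163 CPM against 1.79 and 1.16 CPM. Pdx1 (-1.63), a regulator of pancreatic endoderm, and the epithelial genes Cldn4 (-3.06) and Cldn6 (-1.0) also fell. Over whole E8.5 and E9.5 libraries all 13 tested transport genes had positive fold changes, with medians of 1.06 and 0.35, and none was called.

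**Figure D5:**
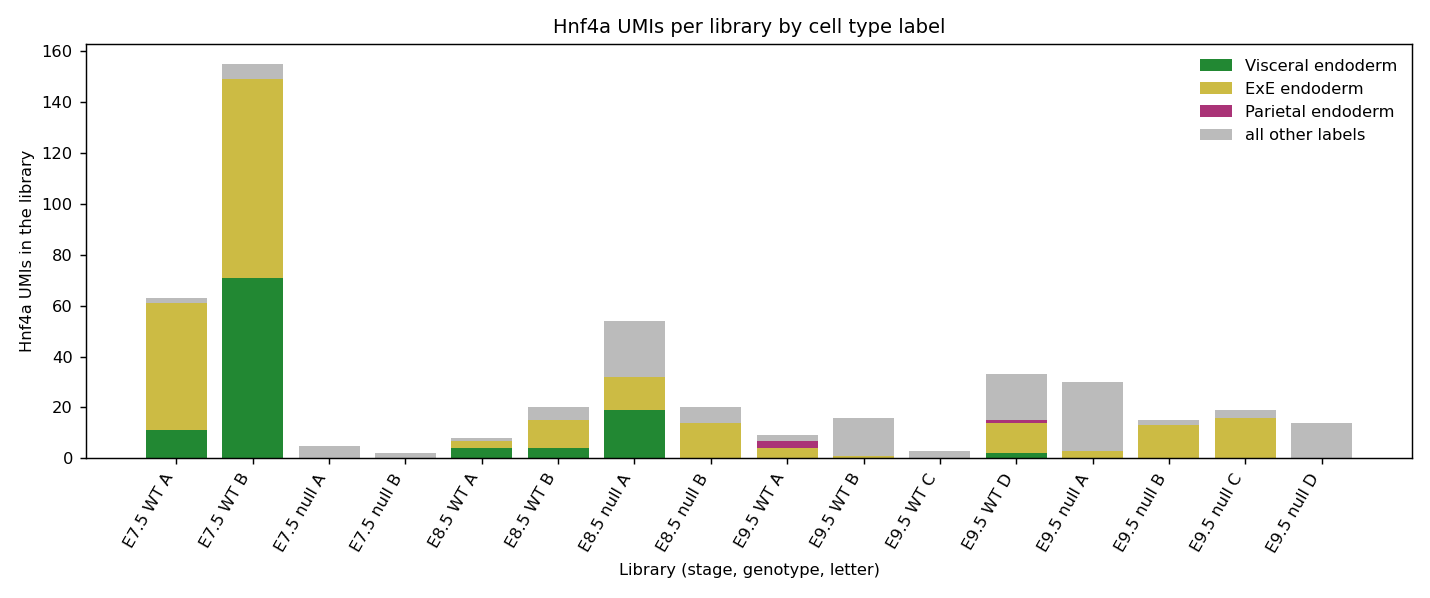
Hnf4a UMIs in each library (bar height), divided by the cell type label of the cells they came from. The E7.5 WT bars reach 63 and 155 UMIs and are almost wholly Visceral endoderm and ExE endoderm, and the E7.5 null bars hold 5 and 2 UMIs.

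At later stages Hnf4a in null libraries came in part from the same labels. At E8.5, 16 extra-embryonic endoderm cells gave 62.2% of the 74 null UMIs. The 3 and 4 null-sorted ExE endoderm cells of libraries A and B had no tdTomato UMI in any cell, while all 8 Visceral endoderm cells of null library A had such a UMI. At E9.5 null library C held 26 ExE endoderm cells, 25 of them with a tdTomato UMI, and the other null libraries 0 to 2. Over whole libraries none of the 8 genes passed with edgeR at E8.5 (0.0278% of genes called) or at E9.5 (1.21%). At E8.5 there were 5 at an unadjusted p under 0.05, DESeq2 called 2 (Foxa2 and Hhex) and limma-voom 0, and at E9.5 all 3 counts were 0. The E8.5 fold changes of Foxa1, Foxa2, Hhex and Nkx2-1 were 0.73, 0.79, 0.69 and 1.22, and those of all genes at E9.5 lay between -0.33 and 0.36.

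Within single labels, 58 pairs of gene and label could be tested in 7, 20 and 37 labels of the successive stages, and none passed with edgeR, where 0.214% of all pairs of gene and label did. There were 13 with an unadjusted p under 0.05, and DESeq2 called 1 and limma-voom 0. The nearest to the threshold was Hhex in E8.5 Erythroid cells, at 3.38 and 3.79 CPM in WT and 10.3 and 10.8 CPM in null libraries. The genotypes did not overlap (1.54 ± 0.20, edgeR adjusted p = 0.0628, with 0.0986% of genes called in this label), and DESeq2 called it (adjusted p = 0.00372). It also passed when null-sorted cells without a tdTomato UMI were left out (2.0, edgeR adjusted p = 0.00837). Next came Cdx2, at -0.84 in E9.5 Limb ectoderm and at -2.80 in E8.5 Limb mesoderm (edgeR adjusted p of 0.257 and 0.271).

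At E8.5 every Nkx2-1 UMI of the pooled endoderm lay in Thyroid primordium, which also held Hhex. In this label an Nkx2-1 UMI was found in 2 of 16 and 2 of 24 WT cells and in 27 of 74 and 7 of 18 null cells, and 30 of the 34 null cells with Nkx2-1 also had a Hhex UMI. Summed, Nkx2-1 in this label was 30.5 and 11.8 CPM in WT and 82.4 and 43.6 CPM in null libraries. The genotypes stood apart, and the fold change of 1.71 ± 0.45 did not pass (edgeR adjusted p = 0.512, with 0.0612% of genes called). On leaving out a library it ran from 1.08 (without null library A) to 2.55 (without WT library A), and each of these fits has a single library in that arm, so that the spread comes from the other genotype. Hhex in the same cells was 64.1 and 61.9 CPM in WT and 169 and 62.7 CPM in null libraries, high in null library A only. At E9.5 an Nkx2-1 UMI was found in 6 of 75 WT and 17 of 85 null cells, with none in WT libraries A and C.

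Across pooled embryonic endoderm, both genotypes together, the genes were also counted together in single cells, although a cell without a UMI can still express the gene. At E7.5, 88.2% of the 93 cells with Foxa1 also had Foxa2, against 85.2% of all 155 cells, and 82.6% of the 132 cells with Foxa2 had Sox17, against 80.0% of all, so both shares were near those of all cells. At E9.5, 60.2% of 279 cells with Foxa1 had Foxa2, against 32.3% of all 815 cells, and 9.13% of 263 cells with Foxa2 had Sox17, against 5.52% of all. A Cdx2 UMI was found in 18.2% of the 176 cells with Hhex at E8.5, against 23.0% of all 764 cells, and in 23.7% of 114 at E9.5, against 13.6% of all. Of the 36 E9.5 cells with Hnf4a, 72.2% had Hhex, against 114 of all 815 cells. Among Erythroid cells Hhex was counted in 7.40% of WT and 20.4% of null cells, and Foxa1, Foxa2, Sox17 and Cdx2 in at most 1.88%.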

How the data were processed

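The authors aligned 3′ 10x reads with Cell Ranger to mm10, as the submitters' processing notes name them, and deposited UMI counts per gene and cell with a table of cell type labels and doublet calls. The deposited cell table also gives the percent of mitochondrial UMIs, on which the authors had filtered cells. The deposited counts were summed here per library and label. Libraries were grouped by stage and sorted genotype. The genes and the lists of related genes were chosen with earlier results of these data known. By the study's gene filter 8178 of 29453 genes were left out and 21275 kept. Sums of labels with more than 15 cells in a library were tested with edgeR 4.0.16 in R 4.3.3 (TMM, filterByExpr, robust quasi-likelihood fit), with Benjamini-Hochberg adjustment over all genes and a threshold of 0.05. DESeq2 1.42.0 and limma 3.58.1 (voom) were alternatives, as were leaving out each library, the low-count filter and the tdTomato rule. At E9.5 exact two-sided permutation tests compared levels and percent of cells with a UMI, also after thinning to 10000 UMIs. Python 3.11.15, numpy 2.4.6, pandas 2.3.3, scipy 1.17.1 and matplotlib 3.10.9 were used. The genes named are all 8 factors, list genes that passed, up to 4 per list with the highest WT level, and the 3 genes most alike to each factor among those reaching 20 CPM. On counts simulated for E9.5 pooled endoderm (10315 genes tested), edgeR called 77.6% of genes changed by 1 on the log2 scale, 95.8% of those changed by 2 and 0.109% of unchanged genes. Intervals between libraries come from few libraries, whose number limits the precision.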

Additional observations from a re-analysis of the deposited data

Results flagged for a closer look

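Foxa1 in E9.5 WT library C stood far from the other WT libraries of pooled embryonic endoderm, at 55.1 CPM against 25.4 to 27.0 CPM, and the gap was 0.948 of the range of the group, above Dixon's 95% critical value for 4 libraries. The percent of its cells with a Foxa1 UMI after thinning was also apart, at 33.8% against 18.0 to 20.2% (0.860 of the range). This library held 42 pooled endoderm cells. There were 32 groups of levels and 32 of shares examined, and chance alone marks about 1 in 20 groups. Without this library the log2 fold change of Foxa1 between null and WT endoderm was 0.10 in place of -0.17.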

How the results depend on the processing

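No paired analysis was possible because the cell table does not tie the libraries to embryo pools, so no shared number marks the same pool. Of 345 alternatives for single genes, 282 kept the direction and the side of the threshold, 30 gained a call, 13 lost it, and 20 changed sign with no call in either setting. In pooled endoderm the number of genes called was 1 in the reported fit, 2 with DESeq2 and without the low-count filter, 0 with limma-voom, 0 for changes over 1 on the log2 scale, 0 without Hindgut cells (chosen after seeing the data), and 0 to 3 on leaving out a library. Over whole libraries it was 1, against 4 with DESeq2, 2 with limma-voom and without the filter, 0 without extra-embryonic cells, and 1 to 2 on leaving out a library. Within labels it was 0, against 1 with DESeq2, 3 without the filter, 1 without null cells lacking a tdTomato UMI, and 0 to 3 on leaving out a library. Between WT stages it was 1, against 0 for changes over 1, 3 with limma-voom and 0 to 3 on leaving out a library. DESeq2 also called 1 there, Nkx2-1 in place of Hhex. The signs that changed were Sox17 at E8.5 with limma-voom (-0.35), Cdx2 at E8.5 without Hindgut (0.11) or Thyroid primordium (0.17), Hhex at E9.5 without Thyroid primordium (-0.36), Nkx2-1 at E9.5 with WT-sorted tdTomato cells kept (0.017) and Cdx2 in E7.5 Lateral plate mesoderm with DESeq2 (-0.0088). On leaving out a library, fold changes ran from -1.26 to 1.46 for Sox17 and -0.23 to 0.20 for Cdx2 at E8.5, -0.29 to 0.10 for Foxa1, -0.11 to 0.51 for Hhex and -0.36 to 0.40 for Nkx2-1 at E9.5, -0.48 to 0.73 for Cdx2 in E7.5 Lateral plate mesoderm, and -0.088 to 0.13 for Foxa2 between WT stages. The cause was not tested. Labels with few cells limit the depth: Hindgut held 3 to 23 cells in each E9.5 library.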
